A study of Mus musculus with 6 samples.

Results

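The receptor tyrosine kinase gene Ret, the genes of its co-receptors Gfra1, Gfra2, Gfra3 and Gfra4, and the ligand genes Gdnf, Nrtn and Artn were followed in RNAseq of mouse neural crest cells (NCCs). They were taken by their names in GENCODE mouse release M21 and make up 8 of the 46983 genes counted. NCCs were sorted by FACS for GFP from E11.25 embryos, with 3 control libraries and 3 libraries deficient in BAF155 and BAF170, a pair of core subunits of the BAF chromatin remodeling complex encoded by Smarcc1 and Smarcc2. All embryos carried 1 copy of the driver (Wnt1 Cre/+) and of the reporter (Rosa26 mTmG/+), which switches from a membrane Tomato to a membrane GFP in cells in which Cre has acted. BAF155/170-deficient embryos were flox/flox at BAF155 and also flox/flox at BAF170. Control embryos were flox/+ at each of these loci, so their recombined cells were heterozygous for both subunits rather than wild type. Wnt1-Cre is also active in the dorsal neural tube, so GFP alone does not restrict the sort to migrated crest.

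Ret does not bind its ligands alone. GDNF family ligands are held by a GFR-alpha protein anchored to the cell surface by a lipid, and this pair brings Ret molecules together so that their kinase domains are activated. GDNF prefers GFR-alpha-1, neurturin (the product of Nrtn) prefers GFR-alpha-2, artemin (Artn) prefers GFR-alpha-3, and persephin prefers GFR-alpha-4. In the embryo, enteric crest carries Ret and GFR-alpha-1 and follows GDNF made by gut mesenchyme, while artemin acts on young sympathetic neurons. Loss of the pathway leaves the gut without ganglia.

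Levels are given as CPM, counts scaled to the TMM-normalized library size. To be called, a gene needed a mean of 2 CPM or more over the 6 libraries, a log2 fold change of 0.58 or more in either direction, and an adjusted p (Benjamini-Hochberg, over all tested genes) no higher than 0.1. All fold changes are BAF155/170-deficient over control on the log2 scale. Library totals ran from 8191219 to 19808620 counts, and each deficient library was deeper than each control library. Nothing in the sources ties a library to a litter or a sorting day, so p-values measure the spread between these 6 samples.

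The targeted genes were checked first. Smarcc1 stood at 42.1, 55.0 and 35.1 CPM in control and at 29.4, 26.4 and 24.5 CPM in deficient libraries, with a log2 fold change of -0.71 ± 0.16 (SE, edgeR quasi-likelihood test, Benjamini-Hochberg adjusted p = 0.0676), and it was called lower, although it turned to 0.24 (edgeR adjusted p = 0.644) when libraries were scaled to embryonic markers. That scaling, based on 36 markers of crest derivatives and neural tube, moved the median over the 13961 genes from -0.02 to 0.87 on the log2 scale. It moves all genes by about the same amount, so a value set against 0.87 only repeats the main fit. The value itself compares a gene with the markers. Smarcc2 differed by -0.11 ± 0.058 (SE, edgeR adjusted p = 0.251; 0.77 with the embryonic scaling), with means of 91.5 ± 1.52 and 85.0 ± 2.38 CPM (SD, n = 3). Its deficient libraries lay below its control libraries, but transcripts of both targeted genes remained in each deficient library, and counts over a whole gene do not separate the floxed exons from the rest.

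The label of the sorted cells was compared with marker genes. Summed over 13 macrophage markers, control libraries held 12100 to 14100 CPM and deficient libraries 14200 to 15500 CPM, and all 13 had a fitted fold change above 0 (median 0.19). None of them was called in the main edgeR fit, by DESeq2 or by limma-voom. In that edgeR fit 9 had an unadjusted p under 0.05. Their fold changes there, from 0.15 to 0.25, lay under the fold threshold of a call. The lack of calls therefore does not show that macrophage levels were equal. With libraries scaled to embryonic markers, edgeR called all 13 higher (median 1.05), when the median over all tested genes was 0.87. Summed over 63 markers of crest derivatives and neural tube, control libraries held 267 to 502 CPM and deficient libraries 166 to 226 CPM. Sox10, which marks early and glial crest, was at 4.36, 7.76 and 2.22 CPM in control and 1.49, 0.855 and 1.19 CPM in deficient libraries. Ctss, a lysosomal protease abundant in macrophages, was at 3370 to 3870 CPM in control and 3900 to 4300 CPM in deficient libraries. The summed macrophage markers thus far exceeded the summed embryonic markers in every library, and the embryonic markers were lower in the same libraries in which Ret and Gfra2 were lower. Their part in the results was not tested. In bulk samples, fewer cells of a type and less RNA per cell cannot be told apart.

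Of the receptor and ligand genes, only Ret, Gfra1 and Gfra2 had enough counts to be tested, and none was called lower or higher by edgeR. For comparison, 4.88% of the 13961 tested genes were called lower and 0.0573% were called higher. The means of Ret (1.39 CPM) and Gfra2 (0.676 CPM) lay under the 2 CPM that a call needs. Only Gfra1 could be called at all, so the lack of calls is no result about the family. At an unadjusted p under 0.05 the count was 2 of 3, namely Ret and Gfra2, both lower, as were 15.2% of tested genes at that p. The count at an adjusted p of at most 0.1 alone was 1 by edgeR (Ret), 1 by DESeq2 (Ret) and 1 by limma-voom (Gfra2), against 7.75% of tested genes that were lower at that adjusted p by edgeR. Ret and Gfra2 entered the test only through their control libraries, so these counts are not evidence about the family as a whole.

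**Figure D1:**
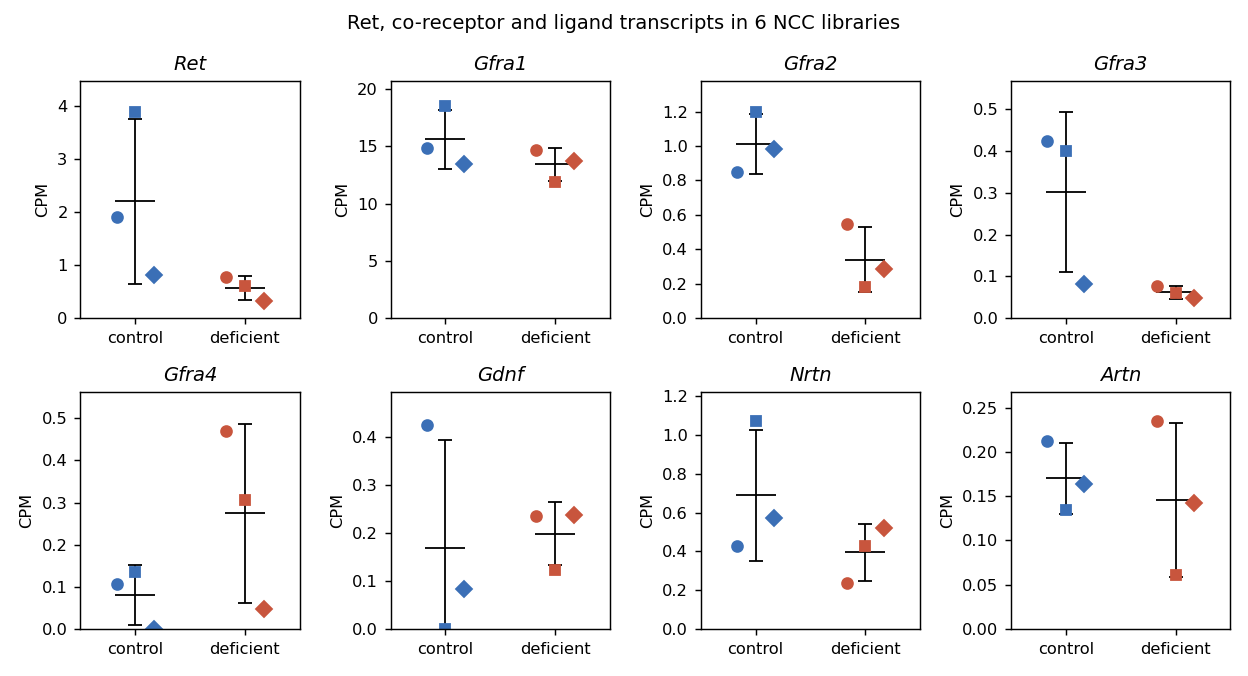
CPM of the 8 genes in each library (circle, square and diamond for replicates 1, 2 and 3; bar and whiskers for mean and SD, n = 3; each panel has its own linear axis from 0). All deficient points lie under all control points for Ret and Gfra2, and for Gfra3 too, where the 4 lowest points are 1 count each, whereas Gfra1, with means of 15.6 and 13.4 CPM, overlaps.

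Ret (ENSMUSG00000030110.13, GRCm38 chr6:118151745-118197718, minus strand) encodes the signalling receptor itself. Its counts were 18, 29 and 10 in control and 10, 10 and 7 in deficient libraries, that is 1.91, 3.88 and 0.821 CPM against 0.783, 0.611 and 0.332 CPM. The groups did not overlap, but control replicate 3 lay close to deficient replicate 1, and control replicate 2 alone stood far above the rest. The means were 2.20 ± 1.55 and 0.576 ± 0.228 CPM (SD, n = 3). The fold change was -1.91 ± 0.59 (SE, 95% interval -3.20 to -0.62, edgeR quasi-likelihood test, Benjamini-Hochberg adjusted p = 0.0911). Ret thus met the thresholds on adjusted p and on fold change, and it was not called because its mean over all libraries, 1.39 CPM, lay under 2 CPM. From counting error alone, the pooled counts of 57 and 27 gave a rate ratio of 0.274 (95% interval 0.167 to 0.441).

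The adjusted p for Ret depended on which libraries were kept. Without control replicate 2, the library with the highest Ret and also the highest sum of embryonic markers, the fold change was -1.25 (edgeR adjusted p = 0.320). It was -1.99 without control replicate 1 (edgeR adjusted p = 0.248), -1.98 without deficient replicate 2 (edgeR adjusted p = 0.165) and -1.60 without deficient replicate 3 (edgeR adjusted p = 0.281), so the adjusted p exceeded 0.1 in each of these. It stayed under 0.1 without control replicate 3 (-2.35, edgeR adjusted p = 0.0177) and without deficient replicate 1 (-2.17, edgeR adjusted p = 0.0853). Calls over all genes moved too. Against 681 called lower with all libraries, there were 0 without control replicate 1 and 61 without control replicate 2. There were 219 without deficient replicate 2, 17 without deficient replicate 3, 1219 without control replicate 3 and 1030 without deficient replicate 1. The fitted value stayed below 0 in all 12 alternatives that gave one, from -2.35 to -0.84.

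Gfra1 (ENSMUSG00000025089.15, GRCm38 chr19:58235604-58455909, minus strand), the co-receptor for GDNF, carried 83.4% of all counts of the 8 genes. Its counts were 140, 138 and 165 in control and 188, 194 and 288 in deficient libraries, or 14.9, 18.5 and 13.5 CPM against 14.7, 11.9 and 13.7 CPM. The groups overlapped, with control replicate 2 the highest and deficient replicate 2 the lowest. The means were 15.6 ± 2.54 and 13.4 ± 1.45 CPM (SD, n = 3). The fold change was -0.21 ± 0.14 (SE, edgeR adjusted p = 0.365), and its 95% interval, -0.53 to 0.10, did not reach the fold threshold of 0.58 on either side. When libraries were scaled to the embryonic markers, its sign turned with that of most genes, to 0.72 (95% interval -0.10 to 1.55, edgeR adjusted p = 0.137). The median gene was then at 0.87, against -0.02 in the fit on TMM sizes. Since that scaling moves all genes by about the same amount, the order of Gfra1 and the median gene was set by the main fit. An antisense gene, Gm16277, shares 416 bp of exon with Gfra1 on the opposite strand, and it had 0 counts in each library.

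Gfra2 (ENSMUSG00000022103.9, GRCm38 chr14:70890120-70979838, plus strand) encodes the co-receptor for neurturin. Counts were 8, 9 and 12 in control and 7, 3 and 6 in deficient libraries, which gave 0.851, 1.20 and 0.985 CPM against 0.548, 0.183 and 0.285 CPM. Each deficient library lay below each control library, and the control libraries were close to each other, unlike those of Ret. The means were 1.01 ± 0.178 and 0.339 ± 0.188 CPM (SD, n = 3). The fold change was -1.60 ± 0.55 (SE, 95% interval -2.80 to -0.41, edgeR adjusted p = 0.102), just outside the threshold on adjusted p. The mean of Gfra2 over all libraries, 0.676 CPM, also lay under the 2 CPM that a call needs. Over 12 alternatives the fold change ran from -2.03 to -0.69 and the edgeR, DESeq2 or limma-voom adjusted p from 0.0736 to 0.344, with 3 of 12 at or under 0.1.

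**Figure D2:**
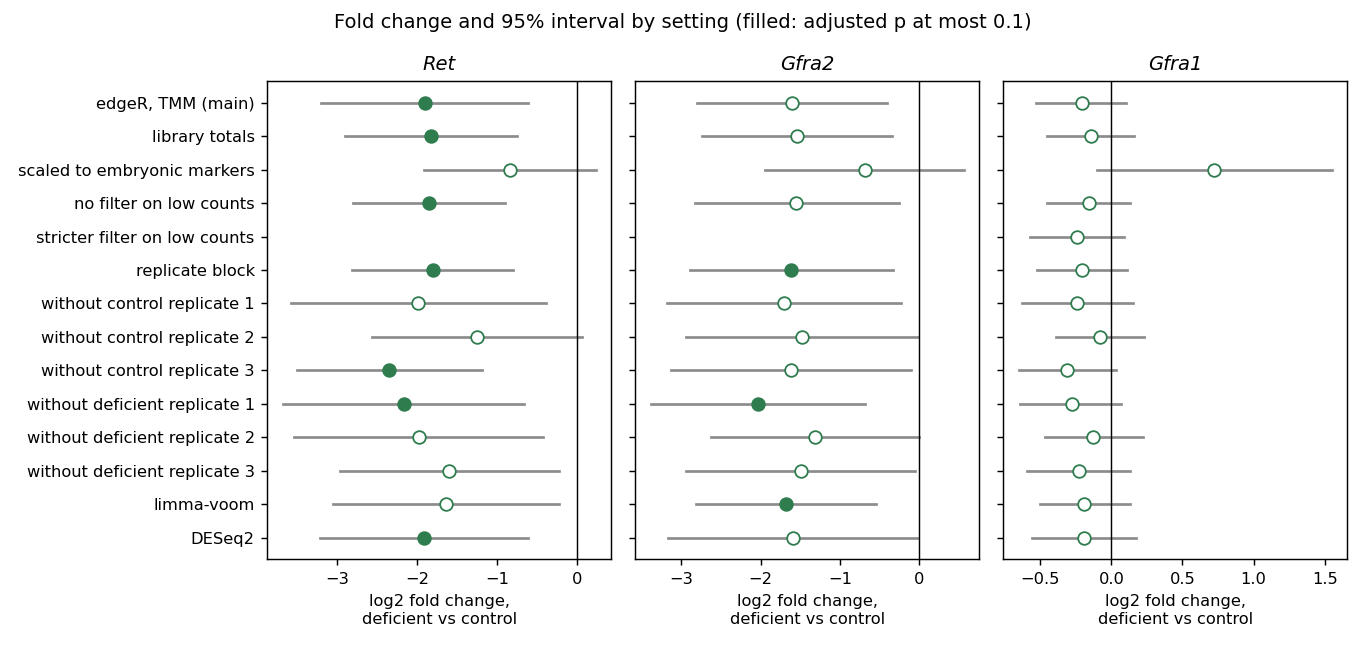
Log2 fold change (x axis, deficient over control) of Ret, Gfra2 and Gfra1 with its 95% interval under each setting (y axis), filled where the adjusted p is at most 0.1. Ret and Gfra2 stay left of 0 in each setting with a value, and Gfra1 crosses to 0.72 when libraries are scaled to embryonic markers.

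Gfra3 (ENSMUSG00000024366.7, GRCm38 chr18:34689898-34720387), the co-receptor for artemin, had counts of 4, 3 and 1 in control and 1, 1 and 1 in deficient libraries. These corresponded to 0.425, 0.401 and 0.0821 CPM and to 0.0783, 0.0611 and 0.0475 CPM. The groups did not overlap, although control replicate 3 and the deficient libraries all rested on a single count, so that their order in CPM followed library size alone. The pooled rate ratio was 0.217 (95% interval 0.0371 to 0.905, counting error only). Of the 3 tested genes, 2 (Ret and Gfra2) had all deficient libraries under all control libraries, a pattern held by 16.4% of tested genes. Both entered the test only through their control libraries, which favours this pattern, so the count is not evidence about the family. None of the 8 genes showed the opposite pattern.

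Gfra4 (ENSMUSG00000027316.15, GRCm38 chr2:131039632-131043088), the co-receptor for persephin, had counts of 1, 1 and 0 in control and 6, 5 and 1 in deficient libraries. The mean was 0.0800 CPM in control and 0.274 CPM in deficient libraries, the only co-receptor with the higher mean in the deficient group. The pooled rate ratio of 3.47 had a 95% interval of 0.773 to 32.0, and deficient replicate 3 lay among the controls.

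The ligand genes were all near the limit of detection, where 3 counts correspond to 0.142 to 0.401 CPM depending on the library. Nrtn (ENSMUSG00000039481.5, GRCm38 chr17:56751325-56757530), which encodes neurturin, had counts of 4, 8 and 7 in control and 3, 7 and 11 in deficient libraries, or 0.425, 1.07 and 0.574 CPM against 0.235, 0.428 and 0.522 CPM. The groups overlapped, and the pooled rate ratio was 0.640 (95% interval 0.327 to 1.26). Gdnf (ENSMUSG00000022144.3, GRCm38 chr15:7810846-7837575) had counts of 4, 0 and 1 in control and 3, 2 and 5 in deficient libraries, with a pooled rate ratio of 1.16 (95% interval 0.361 to 4.32). Artn (ENSMUSG00000028539.14, GRCm38 chr4:117926162-117929763) had counts of 2, 1 and 2 in control and 3, 1 and 3 in deficient libraries, with a pooled rate ratio of 0.811 (95% interval 0.221 to 3.24). For none of the 3 ligand genes was a difference detectable at this depth.

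In the fit without a filter on low counts, which also returned values for the 5 genes outside the main test, Gfra3 had a log2 fold change of -2.05 (edgeR adjusted p = 0.446), Gfra4 of 1.78 (edgeR adjusted p = 0.526), Nrtn of -0.66 (edgeR adjusted p = 0.635), Artn of -0.21 (edgeR adjusted p = 0.936) and Gdnf of 0.24 (edgeR adjusted p = 0.916). In the same fit Ret was at -1.86 (edgeR adjusted p = 0.00547) and Gfra2 at -1.55 (edgeR adjusted p = 0.156).

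Levels were compared between genes after division by exon length. In control libraries Gfra1 led with 2.85 ± 0.464 CPM per kb (SD, n = 3), which exceeded 49.5% of tested genes when averaged over both groups. Nrtn followed with 0.675 ± 0.330, then Ret with 0.326 ± 0.229 and Gfra2 with 0.286 ± 0.0504 CPM per kb. Control values ran from 2.47 to 3.37 for Gfra1 and from 0.416 to 1.05 for Nrtn, so Gfra1 stood apart from all others. The control range of Nrtn overlapped that of Ret (0.121 to 0.574), although within each library Nrtn was the higher of the pair. That difference rests on few counts and was not tested. Ret and Gfra2 (0.240 to 0.340) also overlapped. Gfra3 (0.0411 to 0.213) lay below Gfra2 in each control library. Gfra3, Artn, Gdnf and Gfra4 had control means of 0.152, 0.0708, 0.0460 and 0.0370 CPM per kb, and their ranges overlapped between neighbours. In deficient libraries Gfra1 remained first at 2.45 ± 0.265 and Nrtn second at 0.386 ± 0.143, while Ret and Gfra2 were at 0.0851 ± 0.0336 and 0.0957 ± 0.0532 CPM per kb, beneath the Gfra4 mean of 0.127 ± 0.0984, whose 3 libraries spread widely.

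**Figure D3:**
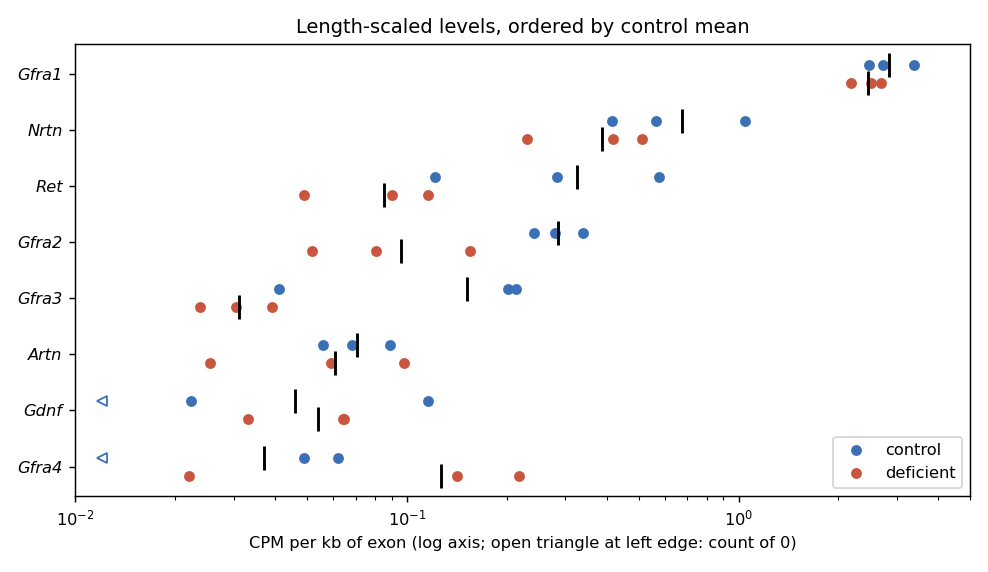
CPM per kb of exon (x axis, log scale) of each library for the 8 genes, ordered from the top by control mean; vertical bars are group means and open triangles at the left edge are libraries with 0 counts. Gfra1 lies apart from the other genes in both groups, and neighbours in the order overlap in control libraries except Gfra1 with Nrtn and Gfra2 with Gfra3.

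Ratios of counts within a library do not depend on how libraries are scaled; the ratios were chosen after the values had been seen and are given as a description. Gfra1 counts per Ret count, corrected for exon length, were 9.61, 5.88 and 20.4 in control and 23.2, 24.0 and 50.8 in deficient libraries. The groups did not overlap, and on the log2 scale the mean ratio was higher by 1.54 in deficient libraries. Ret counts per Sox10 count were 0.439, 0.5 and 0.370 in control and 0.526, 0.714 and 0.280 in deficient libraries, which overlapped, with the deficient libraries at both ends of the range. Ret counts per count of Erbb3, a neuregulin receptor of glial crest, were 0.265, 0.236 and 0.149 in control and 0.132, 0.132 and 0.0824 in deficient libraries, lower in each deficient library. Ret per 1000 counts of embryonic markers was 5.49, 7.73 and 3.07 in control and 3.46, 3.43 and 2.0 in deficient libraries, which overlapped as well. Gfra1 per 1000 counts of embryonic markers was 42.7, 36.8 and 50.7 in control and 65.1, 66.6 and 82.4 in deficient libraries, higher in each deficient library. Relative to macrophage markers, Gfra1 was at 1.15, 1.52 and 0.963 counts per 1000 in control and at 1.04, 0.800 and 0.883 in deficient libraries, which overlapped. Whether Gfra1 and Ret transcripts came from the same cells was not tested.

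**Figure D4:**
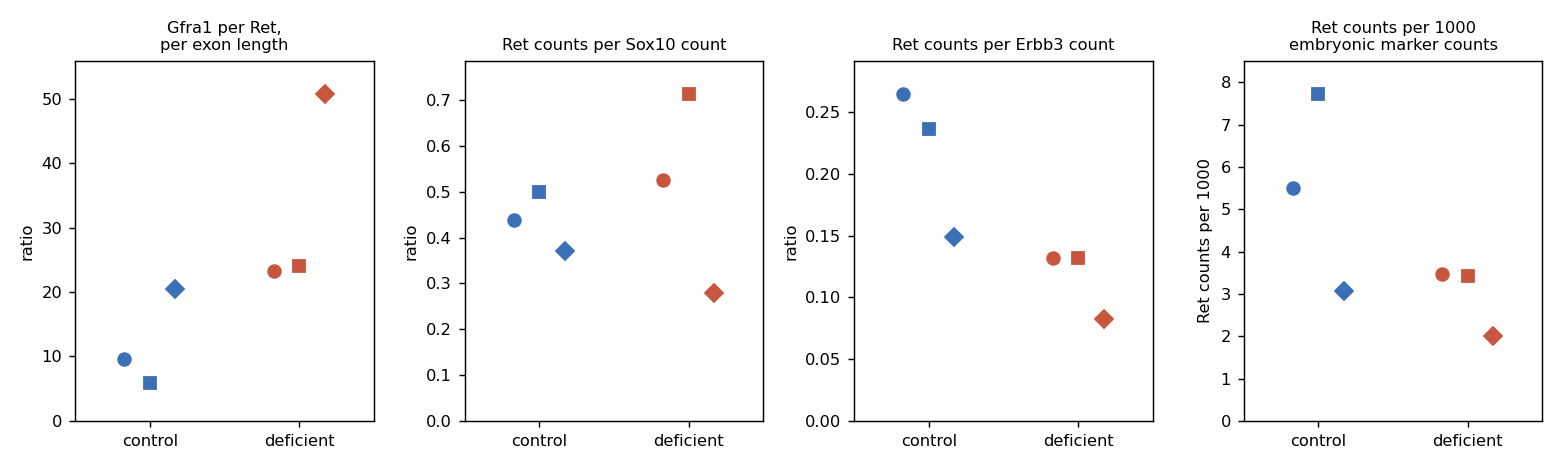
Ratios of counts within each library (symbols for replicates 1 to 3, linear axes from 0): Gfra1 per Ret corrected for exon length, Ret per Sox10, Ret per Erbb3, and Ret per 1000 counts of embryonic markers. Gfra1 per Ret (5.88 to 20.4 in control, 23.2 to 50.8 in deficient libraries) and Ret per Erbb3 (0.149 to 0.265 against 0.0824 to 0.132) separate the groups, and the other 2 ratios overlap.

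The genes whose log2 CPM was most like that of Ret over the 6 libraries were Ercc5, Miga2, Mdk, Hoxb6 and Dusp8, with Pearson r from 0.997 to 0.999 among 10797 named genes of at least 2 CPM. Ercc5 encodes a DNA repair endonuclease, Mdk the growth factor midkine and Hoxb6 a trunk homeobox factor. For Gfra1 the same rule gave Ipo5, a nuclear import receptor, Nudt21, Gspt1, Atp2a2, the endoplasmic reticulum calcium pump, and Gdpd5, with r from 0.991 to 0.996. The points share library depth and group, and with so many genes and only 6 points high values of r arise readily.

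Genes around the receptor were counted over 6 hand-written lists with 82 genes, of which 70 were tested. Of these, 9 were called lower and none higher by edgeR, with 20 below and 8 above 0 at an unadjusted p under 0.05, and DESeq2 and limma-voom called 13 and 11 lower and none higher. The share was 12.9% called lower against 4.88% of all tested genes, and the median fold change was -0.09 against -0.02. With libraries scaled to embryonic markers the count was 1 lower and 33 higher, and the median was 0.82, near that of all genes. Of the 9 called genes, 8 kept a negative value under that scaling, from -0.91 (Sox10) to -0.07 (Lrig1), and Egr1 was at 0.14. That scaling moves all genes by about the same amount, so genes called lower in the main fit lie below the median gene (0.87) by construction. Under it only Sox10 kept an adjusted p under 0.1 (edgeR adjusted p = 0.0961). For the others the edgeR adjusted p ran from 0.577 (Erbb2) to 0.884 (Lrig1). Sox10, Isl1 and Elavl4 are among the markers that set this scaling, so their values under it are not independent of it. The count also moved with single libraries. It was 0 without control replicate 1, 1 without control replicate 2, 14 without control replicate 3, 1 without deficient replicate 2 and 0 without deficient replicate 3. Some listed genes also mark neural and crest cells, whose summed levels were lower in deficient libraries as given above.

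Among 5 other genes of ligands and receptors of the family, 3 were tested. Ncam1, a cell adhesion protein that can bind GDNF with GFR-alpha-1 without Ret, fell from 26.5 ± 10.1 to 11.4 ± 1.72 CPM (SD, n = 3, log2 fold change -1.21 ± 0.27 SE, edgeR adjusted p = 0.0771). Sdc3, a heparan sulfate proteoglycan that binds the ligands, was at 0.19 (edgeR adjusted p = 0.104). Gdf15, a distant ligand that signals to Ret through GFRAL, was at 0.25 (edgeR adjusted p = 0.0986), under the fold threshold. The persephin gene Pspn and Gfral had too few counts.

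Of the 28 adaptors and signal transducers that act below Ret, among them Shc1, Grb2, the Ras genes and the Erk kinases, 25 were tested. None was called by edgeR on TMM sizes, while DESeq2 called 1 and limma-voom 2 lower. In that edgeR fit 3 below and 4 above 0 had an unadjusted p under 0.05. With libraries scaled to embryonic markers, edgeR called 18 higher and none lower. The median fold change of the tested adaptors on TMM sizes was 0.03, with 8 below and 17 above 0 (all 25 above 0 with the embryonic scaling, median 0.93). Pik3ca, the catalytic subunit of a PI3 kinase, had an adjusted p under 0.1 with a small difference (log2 fold change -0.33, edgeR adjusted p = 0.0719), and was named after its values were seen.

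Of 9 genes for turnover and inhibition of the receptor, 1 was called by edgeR on TMM sizes, and DESeq2 and limma-voom each called 3 lower. With libraries scaled to embryonic markers, edgeR called 4 higher and none lower. Lrig1, a membrane protein that restrains growth factor receptors including Ret, fell from 7.39 ± 1.45 to 3.70 ± 0.959 CPM (SD, n = 3, log2 fold change -1.0 ± 0.25 SE, edgeR adjusted p = 0.0710). The list median was -0.02 (0.86 with the embryonic scaling), and the ubiquitin ligase genes Cbl and Cblb were not among the calls of the main fit.

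Of 14 genes known to be induced by Ret signalling, 12 were tested, with a median of -0.41 (0.50 with the embryonic scaling). The 2 called were Egr1, an immediate early factor, with a log2 fold change of -0.82 (edgeR adjusted p = 0.0863), and Mycn, a proliferation factor, with -1.07 (edgeR adjusted p = 0.0965, limma-voom adjusted p = 0.108). The Egr1 means were 6.18 ± 1.4 and 3.46 ± 0.604 CPM and those of Mycn 6.63 ± 2.69 and 3.14 ± 1.08 CPM (SD, n = 3), and the groups overlapped for Mycn but not for Egr1. Spry4, a feedback inhibitor of receptor tyrosine kinases, passed the thresholds on adjusted p and fold (log2 fold change -2.11, edgeR adjusted p = 0.0775), but its mean was 0.798 CPM. Many receptors other than Ret induce these genes.

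Of 14 transcription factors placed upstream of Ret, 10 were tested, and 9 of the 10 had a fitted fold change below 0, with a median of -0.78 (0.15 with the embryonic scaling). Sox10, which activates Ret in enteric crest, fell with a log2 fold change of -1.99 ± 0.45 (SE, edgeR adjusted p = 0.0625), at the CPM values given above for each library. Isl1, a factor of sensory and sympathetic neurons, fell by 1.28 on the log2 scale (edgeR adjusted p = 0.0965, limma-voom adjusted p = 0.106), with overlapping groups. Gata2 and Gata3, sympathetic factors named after their values were seen, had log2 fold changes of -1.08 and -1.88 (edgeR adjusted p = 0.0952 and 0.0625) at means of 1.83 and 1.45 CPM, below the level a call needs.

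Of 12 other genes of enteric crest, 11 were tested and 3 were called lower. These were L1cam, an adhesion protein of migrating crest and axons (log2 fold change -1.25, edgeR adjusted p = 0.0765), Erbb2, the partner receptor of Erbb3 in glial crest (-1.23, edgeR adjusted p = 0.0826), and Elavl4, an RNA-binding protein of neurons (-1.15, edgeR adjusted p = 0.0885). Ednrb, the endothelin receptor that acts beside Ret in gut colonization, was at -0.01 (edgeR adjusted p = 0.973), and the list median was -0.21 (0.68 with the embryonic scaling).

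**Figure D5:**
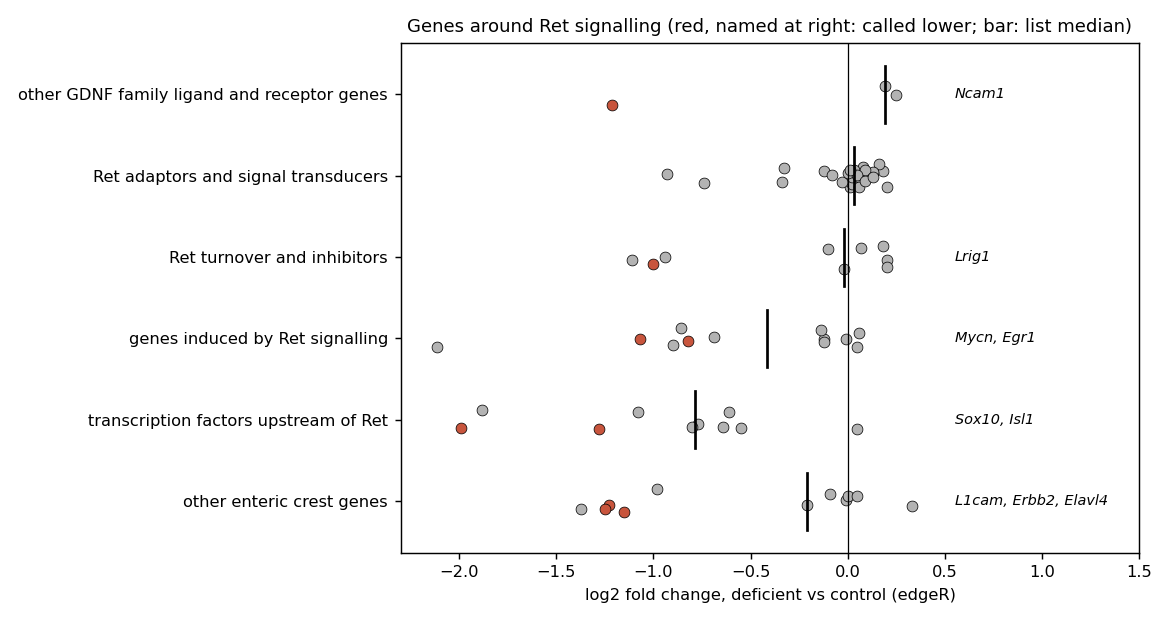
Log2 fold change (x axis, deficient over control) of the tested genes of 6 lists around Ret; red points are called lower and named at the right, and black bars are list medians. The 9 called genes all lie left of 0, while the adaptors cluster near 0 with a median of 0.03.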

How the data were processed

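The authors trimmed adapters from paired-end reads of strand-specific poly(A) libraries, mapped them with STAR to GRCm38, and counted them per gene by featureCounts. The deposited values are raw counts per gene for 6 libraries. The annotation release, the strand setting and the treatment of reads mapping to several places are not given in the sources used here. Names came from GENCODE M21 for 46488 of 46983 identifiers, and the other 495 held 0.0558% to 0.0706% of the counts of a library.

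The edgeR package (4.0.16, under R 4.3.3) was used for the main fit. Its filterByExpr function, with a count minimum of 10 and a total of 15, left 13961 genes. Libraries were scaled by TMM, and condition alone entered a robust quasi-likelihood fit. The common biological coefficient of variation was 12.8%. DESeq2 1.42.0, limma-voom (limma 3.58.1), other scalings, filters and left-out libraries served as alternatives. Intervals on pooled rate ratios are exact binomial intervals at the 95% level and, like the floor of 3 counts, cover counting error only. Summaries and figures used Python 3.11.15, scipy 1.17.1, pandas 2.3.3 and matplotlib 3.10.9, and the fit was tested on simulated data.

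Genes named were the 8 members, the called genes of each list, the 5 genes most like Ret and Gfra1, and Smarcc1 and Smarcc2. Any other was named after its values were seen. The members and lists were chosen with earlier results of these data known. Of the marker lists, the median log2 fold change was -1.15 for sensory (5 of 11 tested called lower), -0.81 for autonomic (1 of 6), -0.98 for glial crest (1 of 5), -1.17 for mesenchymal crest (11 of 17), -0.85 for neural tube (1 of 13), 0.19 for macrophage (0 of 13), 0.51 for neutrophil (0 of 3), -0.49 for erythroid (0 of 9) and 0.06 for endothelial markers (0 of 5), and no epithelial marker was tested. Values of listed genes not named in the text are not reported here.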

Additional observations from a re-analysis of the deposited data

How the results depend on the processing

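The Ret log2 fold change stayed negative under all 12 alternatives that gave a value; leaving out 1 library at a time moved it between -2.35 and -1.25. Its adjusted p exceeded 0.1 with libraries scaled to embryonic markers (-0.84, adjusted p = 0.180) and with limma-voom (-1.64, adjusted p = 0.132), and stayed under it with DESeq2, library totals, no filter and the replicate block. A stricter filter removed Ret and Gfra2. Of the 3 genes tested in the main fit, 1 was called lower on the adjusted p alone, against 7.75% of all tested genes. That gene was Ret, which entered the test only through its control libraries. None of the 8 genes was called higher under any alternative run, and only Gfra1 had the mean of 2 CPM that a call needs in the main fit. Scaling to embryonic markers, which moved the median gene to 0.87, put Gfra1 at 0.72 and the differences of mean CPM at 0.102 for Nrtn and 0.0652 for Artn. Pathway genes called lower, 9 in the main analysis, numbered 1 with that scaling, 0 at an adjusted p of at most 0.05, and from 0 to 14 with a library left out. Over all genes, calls lower ran from 0 (without control replicate 1) to 1219 (without control replicate 3), against 681. The replicate numbers of the titles were not taken as pairs, since the correlations of same-numbered deviations were 0.0284, -0.0335 and 0.293; the deposited column names number the deficient libraries differently. With the replicate block, 14 pathway genes and 1143 of all genes were called lower, Ret was at -1.81 (adjusted p = 0.0173) and Gfra2 at -1.61 (adjusted p = 0.0736). The causes of these changes were not tested. Depth limits the 5 untested genes, whose counts ran from 0 to 11 per library.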
